A study of Rattus norvegicus with 24 samples.

Results

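Cpa3 and Cma1 encode a pair of proteases stored in the secretory granules of mast cells, and their transcripts were followed in the carotid bodies (CBs) of normotensive and hypertensive rats. They were taken as the rows of the count matrix whose Ensembl identifiers the study's table of differentially expressed genes pairs with these symbols, ENSRNOG00000011181 for Cpa3 and ENSRNOG00000020563 for Cma1, and they are 2 of 32623 genes in the counts. They were thus chosen by their measured strain difference in these libraries, on which that table was built, so the strain difference of both genes is given as a description, with no p-value. The CBs, small oxygen-sensing organs at the forks of the common carotid arteries, were dissected from male WKY/NHsd and SHR/NHsd rats aged 12 to 14 weeks per the labels, after perfusion with cold PBS and with no treatment given. WKY is the Wistar-Kyoto rat, the normotensive control, and SHR is the spontaneously hypertensive rat. These inbred strains differ in more than blood pressure, so strain and hypertension cannot be told apart. Left and right CBs of 6 rats per strain were sequenced separately as polyadenylated RNA, 24 libraries in all, with 9198341 to 13655419 counts each (median 9818602).

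Mast cells are tissue-resident cells of the immune system that sit around small vessels and nerves and release stored proteases, amines and proteoglycan when they are activated. Cpa3 is carboxypeptidase A3, a zinc enzyme that removes residues from the carboxyl end of peptides, and Cma1 is the mast cell chymase, a serine protease that cuts after aromatic or, for some rodent forms, aliphatic residues. Both are held in the granule by heparin chains on the proteoglycan serglycin, and chymase is known in several species for cutting angiotensin I to angiotensin II. Rats also carry a large family of related granule proteases, of which Mcpt1l1 (ENSRNOG00000053494), an entry with the synonym rMCP-1, was the only other member of the 11 further proteases listed here whose identifier was paired with a name. Cma1 and Mcpt1l1 lie on chromosome 15 in RefSeq GRCr8 and Cpa3 on chromosome 2. Between Cma1 and Mcpt1l1 that annotation has 23 genes, 14 of them protein coding and 9 pseudogenes, and 10 carry an Mcpt name. Where related copies are alike in sequence, their reads may be split or lost in counting. How alike these genes are was not measured here, which leaves the counts of Cma1 and Mcpt1l1 uncertain in a way those of Cpa3 are not known to be.

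The bases before each start site are shown because the 3 proteases were higher in the same strain and moved together across SHR libraries. Each run is the 250 bases before the annotated start in RefSeq GRCr8, written 5′ to 3′ on the gene's own strand, which is the minus strand for all 3. The windows are chr2:104673238-104673487 for Cpa3, chr15:33390134-33390383 for Cma1 and chr15:33876896-33877145 for Mcpt1l1. Capitals mark the motifs found.
Cpa3: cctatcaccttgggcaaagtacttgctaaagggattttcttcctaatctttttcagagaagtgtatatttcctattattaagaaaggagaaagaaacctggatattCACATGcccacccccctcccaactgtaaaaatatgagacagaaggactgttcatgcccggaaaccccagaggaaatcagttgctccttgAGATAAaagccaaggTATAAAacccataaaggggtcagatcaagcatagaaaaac
Cma1: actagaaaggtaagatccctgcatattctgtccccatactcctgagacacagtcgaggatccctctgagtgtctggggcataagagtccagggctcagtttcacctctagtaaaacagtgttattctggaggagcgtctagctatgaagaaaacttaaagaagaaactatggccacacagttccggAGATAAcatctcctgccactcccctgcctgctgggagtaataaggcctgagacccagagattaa
Mcpt1l1: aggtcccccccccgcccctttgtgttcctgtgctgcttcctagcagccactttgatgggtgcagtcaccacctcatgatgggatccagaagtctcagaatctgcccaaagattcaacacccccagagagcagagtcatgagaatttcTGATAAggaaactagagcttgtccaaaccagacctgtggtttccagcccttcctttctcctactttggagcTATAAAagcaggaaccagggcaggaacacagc

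The letters searched on both strands were TATAAA (the TATA box), AGATAA and TGATAA (cores bound by GATA factors), and CATGTG and CACGTG (E-boxes bound by MITF and other factors of its class). Cpa3 held TATAAA with its first base 40 bases before the start, AGATAA at 55 and, on the opposite strand, CATGTG at 144, which reads CACATG in the run above. Cma1 held AGATAA at 64 bases before the start. Mcpt1l1 held TATAAA at 32 and TGATAA at 103. All 3 therefore had AGATAA or TGATAA in this window, as had 18.9% of 33469 rat promoter windows of 300 bases (AGATAA 11.6%, TGATAA 9.03%). TATAAA stood in 14.2% of them, CATGTG in 14.0% and CACGTG, which none of the 3 had, in 6.42%. A match describes the letters and does not show that a factor binds there.

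The study's own table holds 23 of the 24 libraries, and the right CB of SHR rat 34 is not among them. That library went against its label: the 7 paired markers of glomus cells, the chemosensory cells of the CB, summed to 98.3 CPM (counts per 1000000, with library totals scaled by the trimmed mean of M-values, TMM), against 1257 to 1858 CPM in WKY and 1827 to 2830 CPM in the other SHR libraries, with none of the 7 at 0 and 2 at 3 counts or fewer. Its Tg (thyroglobulin, made by the thyroid) was 7849 CPM, against 0.0959 to 10.7 CPM in WKY and 0.455 to 215 CPM in the other SHR libraries, and its 6 adipocyte markers summed to 539 CPM. Tg was singled out after its values were seen. Results below rest on the 23 libraries unless all 24 are named, and the right CB of SHR rat 34 is described on its own. Its left CB is in the 23 and stands alone for that rat's level.

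Cpa3 transcripts were scarce in WKY CBs. Over the 12 WKY libraries the level was lowest at 0 CPM, had a median of 0.429 CPM and was highest at 1.54 CPM, from 0 to 16 counts, with 5 libraries at 3 counts or fewer. The library with 0 counts, the right CB of WKY rat 36, allowed a level of up to 0.327 CPM. Over the 11 SHR libraries Cpa3 ran from 0.111 CPM through a median of 2.27 CPM to 4.54 CPM, from 1 to 52 counts. Of these, 7 lay above every WKY library and 4 fell within the WKY range, among them the left CB of SHR rat 34, which had 1 count. With the sides of a rat averaged, WKY rats had 0.472 ± 0.370 CPM of Cpa3 and SHR rats 2.07 ± 1.15 CPM (SD, n = 6 rats each), a ratio of 4.39, and 5 of 6 SHR rats lay above every WKY rat. The exception was SHR rat 34, at 0.111 CPM.

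Cma1, the chymase, showed a similar difference with less spread among SHR rats. Over the 12 WKY libraries it ran from 0 CPM through a median of 0.459 CPM to 1.32 CPM, from 0 to 15 counts, with 4 libraries at 3 counts or fewer. The left CB of WKY rat 37 had 0 counts, which allowed a level of up to 0.305 CPM. Over the 11 SHR libraries Cma1 ran from 0.938 CPM through a median of 2.17 CPM to 4.82 CPM, from 11 to 58 counts, and 9 lay above every WKY library. The right CB of SHR rat 31 and the left CB of SHR rat 34, at 0.938 and 1.22 CPM, lay within the WKY range. Rat means were 0.600 ± 0.376 CPM for WKY, against 2.45 ± 0.754 CPM for SHR (SD, n = 6 rats each), a ratio of 4.09, and the strains did not overlap: 6 of 6 SHR rats lay above every WKY rat. Of 14253 genes with a mean normalized count above 10, 3.35% likewise had every SHR rat above every WKY rat, 7.04% had rats of the strains apart in either direction, and 0.912% had every SHR library above every WKY library.

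**Figure D1:**
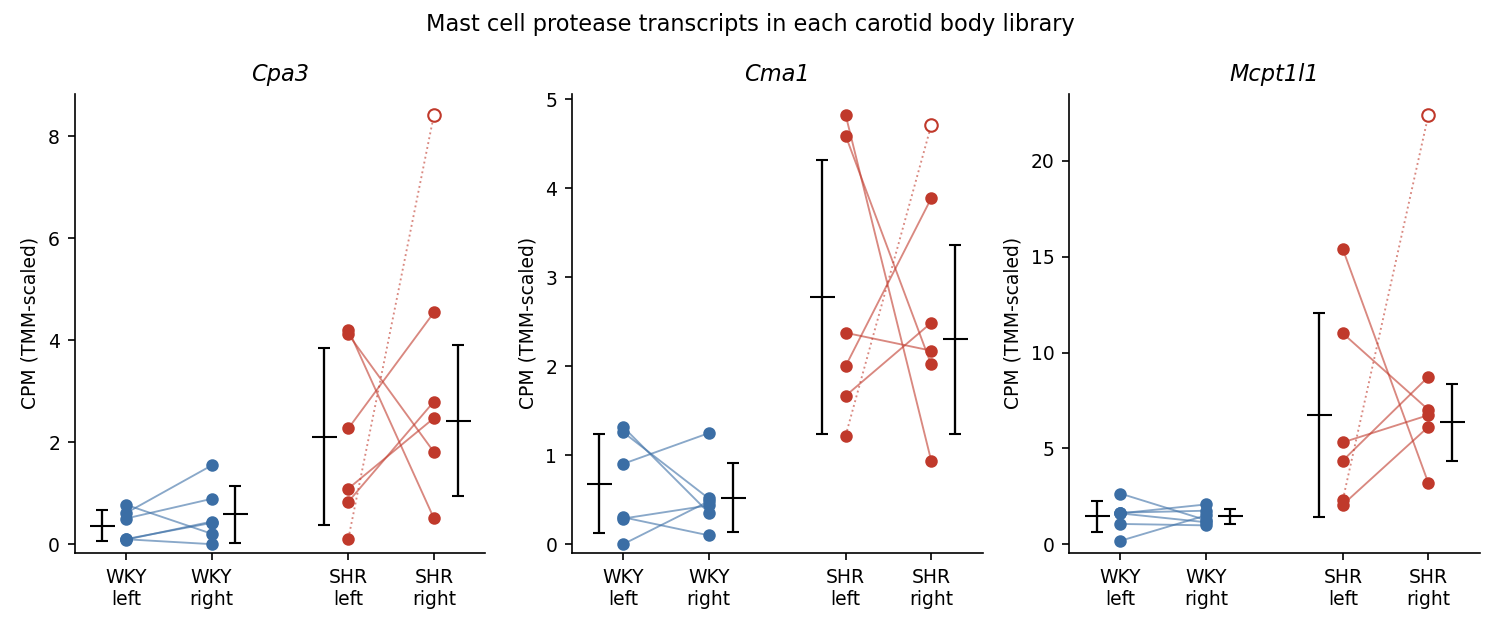
Level of Cpa3, Cma1 and Mcpt1l1 in each CB library, in TMM-scaled CPM (vertical axis, a separate linear scale for each gene) by strain and side (horizontal axis). Each point is a library, lines join the sides of a rat, bars are the mean ± SD of the filled points (n = 6, and n = 5 for SHR right), and the open point with the dotted line is the right CB of SHR rat 34, left out of the mean. WKY points sit below 1.6 CPM for Cpa3 and below 1.4 CPM for Cma1, and the lines of SHR rats cross in both directions.

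On the log2 scale, the edgeR fit with side as a covariate put SHR above WKY by 2.26 (SE 0.487, 95% interval 1.26 to 3.26) for Cpa3 and by 2.07 (SE 0.366, 95% interval 1.32 to 2.82) for Cma1. Because both genes were chosen for this difference in the same libraries, the estimates may be too large. For the same reason the strain intervals in this paragraph do not hold their stated 95% and are no test against 0. In that fit 20.1% of the genes tested differed between strains at an adjusted p under 0.05, and 10.2% were higher in SHR. The median log2 fold change over all genes tested was 0.0057, so the scaling placed the typical gene at no difference. The edgeR fit took the 23 libraries as independent, although the sides of a rat are not. With counts summed per rat, the difference was 2.15 (SE 0.549, 95% interval 0.98 to 3.32) for Cpa3. For Cma1 it was 2.03 (SE 0.367, 95% interval 1.25 to 2.80), and 2039 of 15093 genes were called. With voom and the rat as a random block, the SE was 0.687 for Cpa3 and 0.476 for Cma1. The mean count was 4.83 for Cpa3 and 6.17 for Cma1 in WKY libraries and 23.7 and 27.2 in SHR libraries. Both genes therefore passed the filter on low counts only through SHR. In bulk tissue, fewer mast cells and less protease RNA per mast cell cannot be told apart.

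With strain and side together, Cpa3 levels were in the order WKY left (0.362 ± 0.305 CPM), WKY right (0.582 ± 0.556), SHR left (2.10 ± 1.74) and SHR right (2.42 ± 1.47; SD, n = 6, 6, 6 and 5). Cma1 levels were in the order WKY right (0.522 ± 0.385 CPM), WKY left (0.677 ± 0.556), SHR right (2.30 ± 1.06) and SHR left (2.78 ± 1.54). For both genes the neighbours of the same strain differed by less than the spread within either, and the side with the higher mean was not the same for the 2 genes.

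Side was not used in choosing the genes, so it was tested. Left minus right was -0.36 on the log2 scale for Cpa3 (SE 0.479, 95% interval -1.34 to 0.63, adjusted p = 0.969) and 0.33 for Cma1 (SE 0.363, 95% interval -0.41 to 1.08, adjusted p = 0.961) by the edgeR quasi-likelihood F-test, adjusted over all genes by Benjamini-Hochberg. Neither gene passed the test, but these intervals leave room for side differences of more than a doubling of either gene. With each rat as its own block, left minus right was -0.21 (adjusted p = 0.954) for Cpa3 and 0.38 (adjusted p = 0.871) for Cma1. Over all genes 0 were called between sides by edgeR, DESeq2 or voom, with 702, 716 and 938 genes at an unadjusted p under 0.05. Over the 11 rats with both sides, the mean left minus right log2 CPM was -0.20 ± 1.68 for Cpa3 (p = 0.702) and 0.18 ± 1.60 for Cma1 (p = 0.734) in an exact two-sided sign-flip permutation test (SD, n = 11 rats).

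Whether left minus right differed between SHR and WKY was tested as an interaction. This compares signed differences, so it does not test how far apart the sides lay in either direction. The mean size of the log2 difference over 5 SHR and 6 WKY rats was 1.59 and 1.44 for Cpa3. For Cma1 it was 1.02 and 1.44, and these sizes were not tested. The SHR difference (left minus right) exceeded the WKY difference by 0.54 for Cpa3 (95% interval -1.53 to 2.61) and by -0.11 for Cma1 (95% interval -1.60 to 1.38) on the log2 scale, with adjusted p = 0.999 for both by edgeR. The direction was not stable, since it turned for Cpa3 without SHR rat 31 (-0.042) and for Cma1 with the rat as a block (0.093). Over rats, the exact two-sided permutation test gave a difference of 0.48 for Cpa3 (p = 0.649) and 0.44 for Cma1 (p = 0.693) between 5 SHR and 6 WKY rats. After Benjamini-Hochberg adjustment over these 4 permutation tests every value was 0.734. Of all genes 0 had an interaction by edgeR, DESeq2 or voom, with 438, 474 and 657 at an unadjusted p under 0.05.

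Although neither gene passed the test of side, the CBs of single SHR rats differed beyond counting error in 3 of 5 rats for Cpa3 and 2 of 5 for Cma1. The share of all genes that do so was not counted. The share of variance between sides, 44.2% for Cpa3 and 50.5% for Cma1, was near the median of 48.3% over all genes. Such differences are therefore not particular to these genes. In SHR rat 31 Cpa3 was 4.21 CPM on the left and 0.505 CPM on the right (41 and 7 counts), an 8.32-fold difference. Cma1 in the same rat was 4.82 CPM on the left and 0.938 CPM on the right (47 and 13 counts), 5.14-fold, and Mcpt1l1 was 15.4 and 3.18 CPM, 4.84-fold. All 3 proteases were thus higher in the left CB of that rat, each with 95% Poisson intervals of the sides that did not meet. SHR rat 37 was also higher on the left, with Cpa3 at 4.11 against 1.81 CPM and Cma1 at 4.59 against 2.02 CPM.

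The other SHR rats leaned to the right or were even. In SHR rat 36 Cpa3 was 0.833 CPM on the left and 2.80 CPM on the right, with intervals apart, while Cma1 was 1.67 and 2.49 CPM with intervals that met. In SHR rat 33 Cpa3 was 1.09 CPM on the left and 2.47 CPM on the right, and Cma1 was 2.0 and 3.88 CPM, with intervals that met for both. SHR rat 30 was the rat in which the genes parted: Cpa3 was 2.27 CPM on the left and 4.54 CPM on the right, while Cma1 was 2.37 and 2.17 CPM. Counting intervals of the sides were apart in 3 of 5 SHR rats for Cpa3, in 2 of 5 for Cma1 and in 4 of 5 for Mcpt1l1. In WKY they were apart in 0 of 6 rats for Cpa3 and Cma1 and in 1 of 6 for Mcpt1l1, at counts so low that only large differences could have separated them. These intervals cover counting error only.

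**Figure D2:**
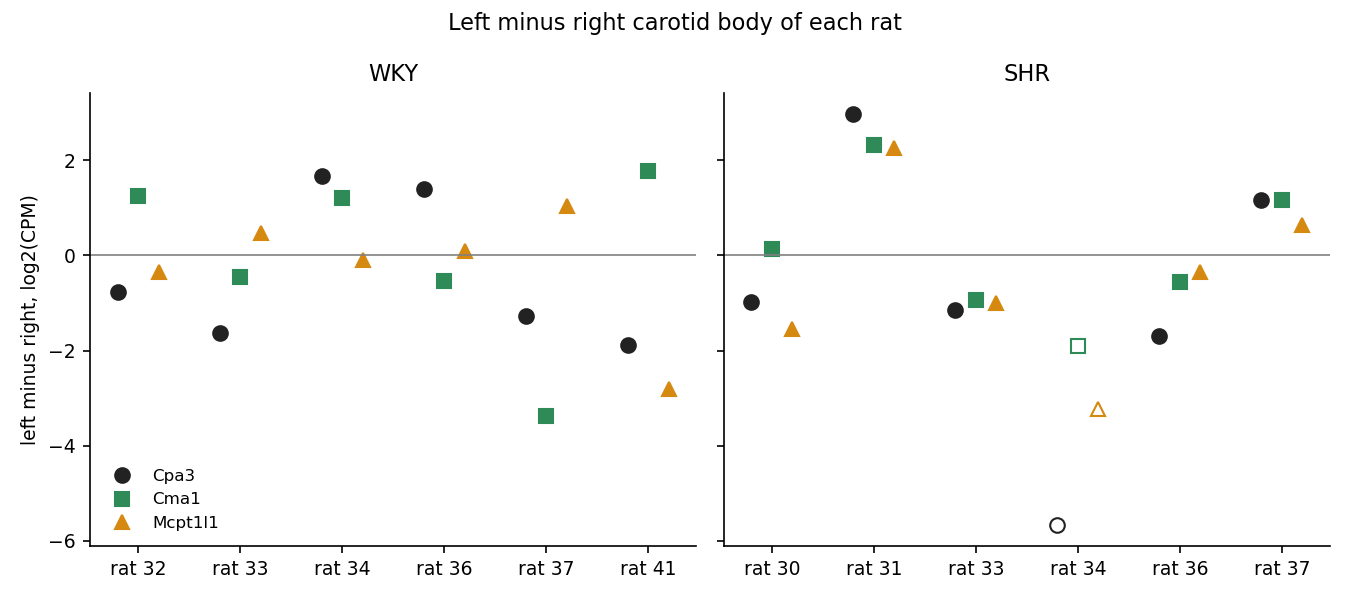
Left minus right log2 CPM (vertical axis) of Cpa3 (circles), Cma1 (squares) and Mcpt1l1 (triangles) for each WKY rat (left panel) and SHR rat (right panel), with the line at no difference. Open symbols use the right CB of SHR rat 34, which is outside the 23 libraries. In SHR the 3 symbols of a rat lie on the same side of the line in 4 of the 5 rats with filled symbols, and in WKY in 0 of 6.

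The 3 proteases leaned to the same side within SHR rats. Cpa3 and Cma1 were higher on the same side in 4 of 5 SHR rats, Cpa3 and Mcpt1l1 in 5 of 5, and all 3 together in 4 of 5. In WKY, where Cpa3 had 3 counts or fewer in 5 of 12 libraries, Cma1 in 4 and Mcpt1l1 in 1, the same counts were 3 of 6, 3 of 6 and 0 of 6. The summed level of 11 macrophage markers was higher on the same side as Cpa3 in 2 of 5 SHR rats, that of 6 adipocyte markers in 2 of 5, that of 13 fibroblast markers in 2 of 5, that of Tg in 3 of 5, that of the 7 glomus markers in 3 of 5 and that of 7 skeletal muscle markers in 4 of 5, the same count as for Cma1. The summed level of 8 other mast cell genes, for granule contents, receptors and signalling, was higher on the same side as Cpa3 in 2 of 5. For Cma1 that count was 3 of 5. For 6 leukotriene and prostanoid genes of mast cells the counts were 3 of 5 with Cpa3 and 2 of 5 with Cma1. The shared side of the proteases was thus not seen across these other mast cell genes. No test was made of these counts over 5 rats. Of the variance of log2 CPM within strains, 44.2% for Cpa3 and 50.5% for Cma1 lay between the sides of a rat, against a median of 48.3% over all genes and 55% expected if the sides of a rat were unrelated.

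Across SHR libraries the levels of the proteases ran together. Over the 11 SHR libraries the correlation of log2 CPM was 0.80 for Cpa3 with Cma1, 0.69 for Cpa3 with Mcpt1l1 and 0.78 for Cma1 with Mcpt1l1, as a description, since sides of a rat are not independent and each pair of values shares a library and its depth. Leaving out any 1 library, the lowest of these were 0.78, 0.59 (without the left CB of SHR rat 34) and 0.70. Over the 12 WKY libraries the same correlations were -0.27, 0.48 and -0.56, between counts that mostly lay under 20. The libraries lowest in Cpa3 among SHR, the left CB of rat 34 and the right CB of rat 31, were also the lowest in Cma1.

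With rats as the unit, Pearson's r of Cpa3 with Cma1 over 6 SHR rats was 0.887 (exact permutation p = 0.0639, 0.217 after Benjamini-Hochberg adjustment over 6 relations) and Spearman's rho was 0.771 (exact permutation p = 0.103, adjusted 0.272). Without the 2 SHR rats farthest from the median of Cpa3, r was 0.801 over 4 rats. Over 6 WKY rats r was -0.497 (exact permutation p = 0.292, adjusted 0.35) and rho was -0.486 (exact permutation p = 0.356, adjusted 0.427), and r was -0.822 without the 2 farthest. For Cpa3 with Mcpt1l1, rho over 6 WKY rats was 0.886 (exact permutation p = 0.0333, adjusted 0.2). Over 6 SHR rats that rho was 0.257 (exact permutation p = 0.658, adjusted 0.658). The r of that pair was 0.624 in WKY (exact permutation p = 0.211, adjusted 0.35) and 0.691 in SHR (exact permutation p = 0.236, adjusted 0.35). None of the 6 relations among the 3 proteases in the 2 strains passed after adjustment. For Cma1 with Mcpt1l1 in SHR, r over rats fell from 0.827 to -0.00976 without the 2 farthest rats, so that relation rested on those rats.

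**Figure D3:**
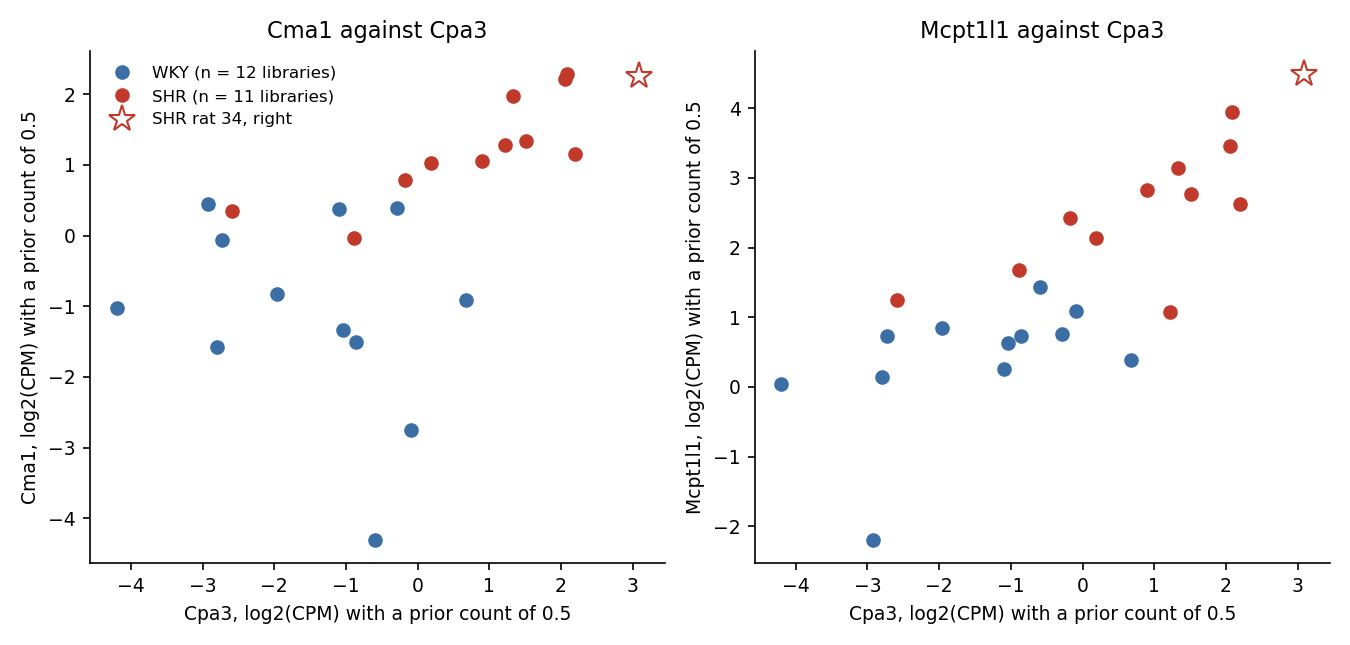
Level of Cma1 (left panel) and Mcpt1l1 (right panel) against Cpa3 in each library, on log2 CPM axes with a prior count of 0.5. Blue points are the 12 WKY libraries, red points the 11 SHR libraries and the open star the right CB of SHR rat 34. The SHR points rise together, with r of 0.80 and 0.69 over 11 libraries, and the star lies at the upper right of both panels.

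The spread of both genes was wide for their level. The biological coefficient of variation, the part of the spread between libraries beyond counting error, was 0.734 for Cpa3 against a trend of 0.352 for genes of its abundance, and the ratio of 2.08 was larger than that of 97.6% of genes tested. For Cma1 it was 0.501 against 0.349, a ratio of 1.44 and larger than that of 93.4%. Among SHR rats, Cpa3 ran from 0.111 CPM in rat 34 through 1.78, 1.81, 2.36 and 2.96 CPM in rats 33, 36, 31 and 37 to 3.41 CPM in rat 30. Cma1 ran from 1.22 CPM in rat 34 through 2.08, 2.27, 2.88 and 2.94 CPM in rats 36, 30, 31 and 33 to 3.30 CPM in rat 37. SHR rat 34 was thus the lowest for both genes on its left CB alone.

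The right CB of SHR rat 34, the library outside the study's table, had the most Cpa3 of all 24. It held 68 counts of Cpa3, or 8.42 CPM (95% Poisson interval 6.54 to 10.7), which was 5.46 times the highest WKY library, while the left CB of the same rat had 1 count, or 0.111 CPM (0.00281 to 0.618). Right over left was 75.9, with a counting interval of 13.2 to 3042. Cma1 was 4.70 CPM there (38 counts, interval 3.33 to 6.46), the second highest of 24, against 1.22 CPM on the left (11 counts, interval 0.609 to 2.18), a ratio of 3.86. Mcpt1l1 was 22.4 CPM (181 counts, interval 19.3 to 25.9), the highest of 24, and 9.62 times the left CB. TMM scaled the total of this library from 10450867 to 8079120, which raised all its CPM values. The rank of Cma1 and the size of these ratios depend on that scaling. All 3 proteases were thus high in a library whose thyroid and adipocyte markers were high and whose glomus markers were low. The part of this tissue in its protease level was not tested.

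Within the 23 libraries, Tg was higher on the same side as Cpa3 in 3 of 5 SHR rats and 2 of 6 WKY rats. In the right CB of SHR rat 37, Tg was 28.9 CPM, against 1.90 CPM on the left. Cpa3 was 1.81 CPM in that right CB, lower than the 4.11 CPM on the left. A library picked after its values were seen was high in both. The right CB of SHR rat 30 had the highest Cpa3 of these, 4.54 CPM, and the highest Tg, 215 CPM, while its 6 adipocyte markers, at 94.2 CPM, and its 7 glomus markers, at 2162 CPM, lay within the SHR range. Without that library the strain difference was 2.10 on the log2 scale for Cpa3 and 2.07 for Cma1. With all 24 libraries it was 2.51 and 2.17, and the ratio of rat means was 5.86 for Cpa3 and 4.57 for Cma1.

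Mcpt1l1, the related chymase, was also higher in SHR. It ran from 0.175 CPM through a median of 1.55 CPM to 2.64 CPM over 12 WKY libraries, and from 2.06 CPM through 6.12 CPM to 15.4 CPM over 11 SHR libraries. Rat means were 1.45 ± 0.453 CPM for WKY, against 6.21 ± 2.72 CPM for SHR (SD, n = 6 rats each), a ratio of 4.28. Here 6 of 6 SHR rats lay above every WKY rat, as in 3.35% of genes tested. The log2 fold change of 2.18 (SE 0.323) and this separation are descriptions too, because the name of Mcpt1l1 comes from the same table of genes higher in SHR.

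Other genes of mast cells differed by less. Of 19 listed genes for granule contents, receptors and signalling, 8 were paired with a name and 4 of these were called higher in SHR, beside 10.2% of all genes tested, and the median log2 fold change of the 8 was 0.38 (0.34 to 0.56). Since only genes higher in SHR carry names here, the direction is fixed and the count says nothing about the list. Srgn, the serglycin core protein that holds these proteases in the granule, had a log2 fold change of 0.34, with 64.7 ± 4.72 CPM for WKY rats, against 82.6 ± 8.95 CPM for SHR rats (SD, n = 6 rats each). Lat (0.56) and Rasgrp4 (0.42), which relay signals from the IgE receptor and from Kit, and Unc13d (0.38), needed for granule release, were also called. Enpp3 (0.37), a surface enzyme of mast cells and basophils, Siglec8 (0.47), an inhibitory receptor, Csf2rb (0.35), the shared chain of interleukin receptors, and Syk (0.39), the kinase behind the IgE receptor, did not pass the test. Srgn, Csf2rb, Syk, Lat and Unc13d are also used by other blood cells.

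The summed level of these 8 genes was 129 to 170 CPM in WKY and 161 to 224 CPM in SHR. The right CB of SHR rat 34 had 168 CPM. In that library Rasgrp4 was 2.23 CPM, against 2.66 to 6.36 CPM in WKY, and Enpp3 was 79.7 CPM, against 28.6 to 54.6 CPM in WKY and 32.8 to 86.2 CPM in the other SHR libraries. The summed list thus lay within the WKY range in the library where the 3 proteases were far above it. Srgn and Enpp3, the most abundant of the 8, weigh most in this sum, so it does not measure mast cells there. Defining mast cell genes such as Kit, Fcer1a, Ms4a2, Hdc and the tryptases were not paired with identifiers and are not analysed here. The presence of mast cells was therefore not checked independently of these proteases. In WKY rats Enpp3 (40.1 CPM), Srgn (64.7 CPM) and Rasgrp4 (4.59 CPM) all exceeded Cpa3 (0.472 CPM) and Cma1 (0.600 CPM). These genes are therefore weak checks, and Srgn is also used by other blood cells.

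For lipid mediators, which mast cells make on activation, 6 of 10 listed enzymes and receptors of the leukotriene and prostanoid pathways were paired and 4 were called higher in SHR, beside 10.2% of all genes tested, with a median log2 fold change of 0.44. Here too only genes of the table higher in SHR could be paired, which largely fixes the count. Their summed level was 25 to 37.5 CPM in WKY, against 38.1 to 49.7 CPM for SHR, with 28.3 CPM in the right CB of SHR rat 34. Of the renin-angiotensin system, on which chymase can act, Agtr2, the type 2 angiotensin receptor, was called higher in SHR. It was 189 ± 32.8 CPM for WKY rats, against 426 ± 59.8 CPM for SHR rats, a log2 fold change of 1.16 (SD, n = 6 rats each). In the right CB of SHR rat 34 Agtr2 was 0.248 CPM (2 counts). This was lower than in every other library, but Agtr2 is also one of the 7 glomus markers, which together were low there. The value therefore says nothing separate about a link between Agtr2 and the proteases.

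Markers of other cells moved with strain as well, and their part in the difference of Cpa3 and Cma1 was not tested. Of the paired markers, 10 of 11 of macrophages were called higher in SHR (summed level 127 to 202 CPM in WKY and 175 to 335 CPM in SHR), as were 8 of 13 of fibroblasts (332 to 580 and 427 to 882 CPM), 3 of 6 of adipocytes (64.2 to 116 and 86.4 to 181 CPM) and 7 of 7 of glomus cells. For lymphocytes 1 of 9 was called (31.8 to 55.9 and 43.0 to 103 CPM), for smooth muscle 1 of 5 (320 to 1029 and 525 to 1324 CPM), for skeletal muscle 4 of 7 (25.4 to 37.5 and 39.7 to 61.3 CPM) and for the thyroid 1 of 1. Over all genes tested 10.2% were called higher, but names were available only for genes of the table higher in SHR, which fixes the direction and largely fixes these counts. Median log2 fold changes of the lists ran up to 0.91 and single adipocyte markers up to 1.59, with Tg alone at 3.17. Cpa3 and Cma1 were above 2, but they are single genes chosen for their strain difference, so these sizes are not comparable.

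**Figure D4:**
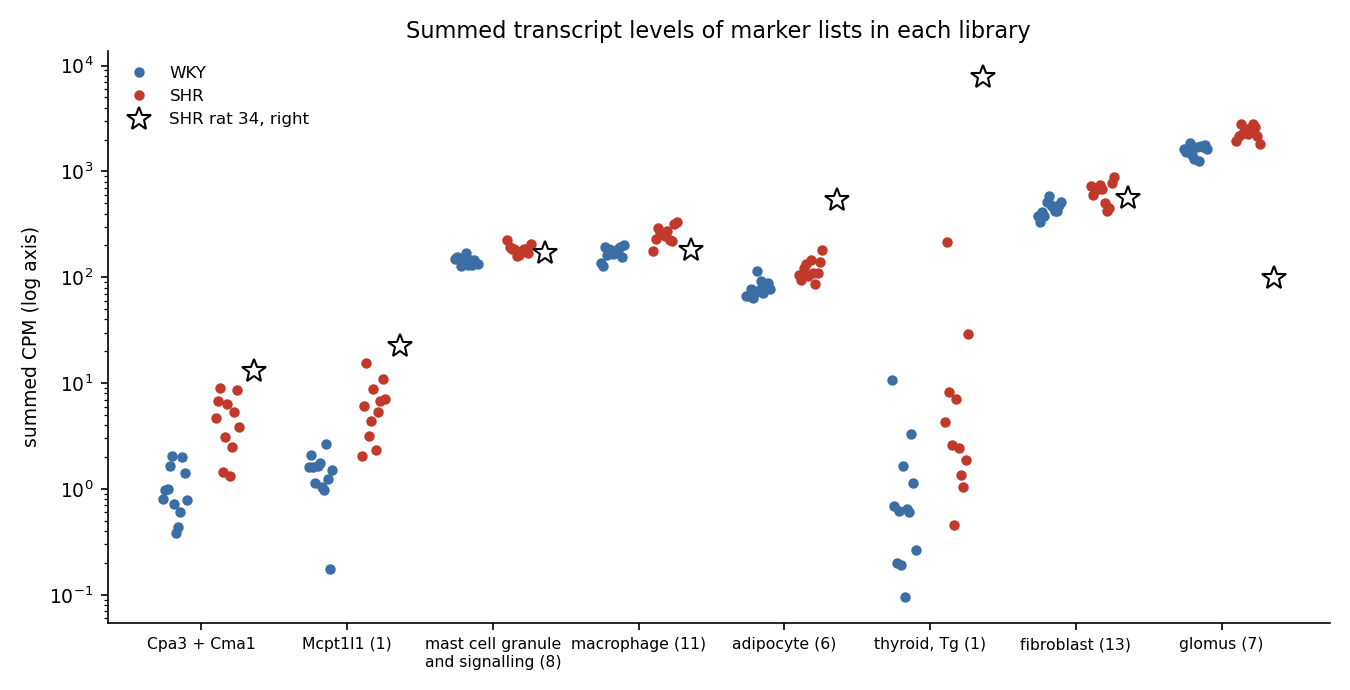
Summed CPM (vertical log axis) of Cpa3 with Cma1, of Mcpt1l1 and of the paired genes of each marker list (number of genes in brackets) in every library, by strain. Blue points are WKY, red points SHR and the open star the right CB of SHR rat 34. In that library the proteases, the adipocyte markers and Tg are above all other libraries, and the glomus markers, at 98.3 CPM, are below them.

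The genes whose pattern was most like that of Cpa3 and Cma1 were sought among all genes tested, by Pearson's r with the mean log2 CPM of the pair over 23 libraries after centring each strain. The named genes among the first 10 were Cfap45, a protein of cilia and flagella (r = 0.736), Cd200r1, an inhibitory receptor of myeloid cells (0.686), Septin1, a cytoskeletal GTPase (0.668), and Tmem177, a mitochondrial protein (0.636). The other 6 had no symbol, among them ENSRNOG00000002273 (0.649) and ENSRNOG00000013331 (0.645). Mcpt1l1 stood at rank 594 (r = 0.371), at 25 with Cpa3 alone and at 10078 with Cma1 alone. The ranking depended on the setting: of these 10 genes, 1 was shared without centring, 3 with all 24 libraries, 2 with Cpa3 alone, 1 with Cma1 alone and 8 with a prior count of 2.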

How the data were processed

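The authors aligned the reads with STAR and counted them per Ensembl gene with featureCounts, and they deposited raw counts without normalization. Libraries were made with a stranded polyA kit. Versions, genome build, annotation, and how strand and multi-mapped reads were handled, are not given in the sources used here. Columns were assigned to libraries by the codes in the labels.

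Symbols were read from the study's table of differentially expressed genes (1391 rows read, giving 1273 identifiers a symbol, each of a gene higher in SHR), and its fold changes and p-values were not used. RefSeq GRCr8 gave promoter sequences, chromosomes and gene order for all 3 proteases by symbol. Cpa3, Cma1 and the gene lists were chosen with earlier results of these data known. Genes were named as the pair itself, the proteases, then mast cell and renin-angiotensin genes of the lists (up to 12), and the 10 most alike. The summary of the renin-angiotensin list is not reported here.

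Counts were tested in R 4.3.3 with edgeR 4.0.16 (TMM, robust quasi-likelihood F-test, side and strain as terms) on 23 libraries and the 14253 genes whose mean normalized count exceeded 10, and p-values were adjusted by Benjamini-Hochberg at 0.05. Named tests without another tool are from this fit, which was tested on simulated counts. DESeq2 1.42.0 and limma 3.58.1 (voom) were alternatives. CPM used 1 TMM scaling over all 24 libraries, and log2 CPM a prior count of 0.5. Exact permutation tests over rats and Poisson intervals used scipy 1.17.1. A library with 3 counts or fewer was taken as at the floor, which was also the limit for a count of 0. Totals of 9198341 to 13655419 counts set the precision, and reads without molecular identifiers are not independent molecules, so intervals and floors cover counting error only.

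Left and right of a number are from the same rat (correlation of deviations from the group means over 11 rats, median 0.115, -0.031 to 0.241). Numbers shared between strains do not pair rats (7 pairs of libraries, -0.291 to 0.0561). Over 60 pairs of libraries of a group, chi-square per degree of freedom was 5.27 at its lowest, so none was a repeat within sampling noise.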

Additional observations from a re-analysis of the deposited data

Results flagged for a closer look

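The right CB of SHR rat 34, outside the 23 libraries compared, had protease levels above every WKY library: Cpa3 was 8.42 CPM, Cma1 was 4.70 CPM and Mcpt1l1 was 22.4 CPM. Its glomus, thyroid and adipocyte markers are given above. Among the 6 right CBs of SHR, the same 22.4 CPM of Mcpt1l1 also stood far from the other 5 by Dixon's gap test at the 95% level. Among the 6 right CBs of WKY, Cma1 in rat 33, at 1.25 CPM (12 counts), stood far from the other 5, which ran from 0.0987 to 0.513 CPM. Of 12 groups checked 2 were picked out in this way, and chance alone picks out about 1 group in 20 at this level.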

How the results depend on the processing

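The strain difference of both genes kept its direction under all 24 alternatives, from 1.99 to 2.66 on the log2 scale for Cpa3 and from 1.88 to 2.31 for Cma1. These alternatives reuse the libraries in which both genes were chosen, so the kept direction is no separate support. Leaving out each rat in turn gave 2.03 to 2.66 and 1.88 to 2.31, and the replicate block on rat numbers gave 2.0 for both, with 1730 genes called. The number of genes called fell from 2861 to 1482 with all 24 libraries, 1270 with left CBs alone and 838 with right CBs alone, where fewer samples entered, and was 2193 to 2831 with each rat left out. The side difference kept its sign in all 21 alternatives (-0.73 to -0.15 for Cpa3, 0.09 to 0.54 for Cma1), with adjusted p from 0.818 to 1.0 for Cpa3 and 0.841 to 1.0 for Cma1, and 0 genes were called for side or interaction in any. WKY alone gave no side value, as both genes fell under the filter there. With all 24 libraries, left minus right over 12 rats was -0.65 for Cpa3 (exact permutation p = 0.354) and 0.0048 for Cma1 (exact permutation p = 0.994). The interaction of Cpa3 was -0.042 without SHR rat 31 (-0.042 to 1.08 with each rat left out). That of Cma1 turned to 0.33 with voom and 0.093 with the rat as replicate block, and was -0.54 to 0.30 with each rat left out, turning without WKY rats 34 (0.15) and 41 (0.30) and SHR rats 33 (0.26), 34 (0.037) and 36 (0.035). The cause was not tested. Leaving out the right CB of SHR rat 30 was chosen after seeing the data. Low WKY counts limit every value within that strain.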
